A study of Mus musculus with 5 samples.

Results

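The Hox cluster genes were all the rows of the expression table named Hoxa, Hoxb, Hoxc or Hoxd followed by a number, 39 of the 23997 genes listed. They comprised 11 HoxA, 10 HoxB, 9 HoxC and 9 HoxD genes. Hox genes encode homeodomain transcription factors that give cells of the hindbrain, spinal cord, trunk and limbs their position along the body axis, and within each cluster the order of the genes follows the order in which they are used. In the forebrain the clusters are not used and are held silent by Polycomb complexes, PRC2 placing a repressive methyl mark on histones and PRC1 binding there. Uhrf1 acts in another system of silencing, since it brings the methyltransferase Dnmt1 to newly copied DNA so that DNA methylation is kept through cell division. The label of this gene group, silenced by Polycomb in cortex, was checked only for silence, because neither Polycomb binding nor DNA methylation is part of the table.

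RNA-seq was performed on full cortex of C57BL/6 mouse embryos at embryonic day 16. The 3 controls carry the genotype Uhrf1 +/- and the 2 conditional knockouts (cKO) the genotype Uhrf1 -/-. By the study's methods a Cre expressed from the Emx1 locus, which control embryos carry too, removes a floxed exon of Uhrf1 in the dorsal telencephalon. Cells in the dissected cortex that do not come from the Emx1 lineage, such as vessels and microglia, would not be recombined. Values are FPKM, fragments per kilobase of transcript and 1000000 mapped fragments, 1 value per gene and library. The values of Uhrf1 were 7.24, 13.2 and 13 FPKM in controls 1 to 3 and 2.75 and 2.61 FPKM in cKO 1 and cKO 2, the cKOs averaging 24% of the controls (log2 difference -1.97, SE 0.28, adjusted p = 0.00752, limma). All 12 cortical markers examined were above 0 in every library.

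The table gives no read counts. From the steps between low values of 2172 single-transcript genes the libraries were estimated roughly, in units of 1000000 fragments, at 43, 16 and 11 for controls 1 to 3 and at 8.7 and 10 for cKO 1 and cKO 2. Control 1 was thus the deepest library. Both cKOs were estimated below every control, but the estimates of cKO 2 and control 3 are too close to be ordered. Of these low values 63% to 78.2% fell within 0.25 of whole fragment numbers, against 50% by chance, so fragment numbers below are approximate. A gene listed at 0 can also be a failed estimate. None of 40 genes that every cell uses was at 0 in any library. The lowest value among them was 1.92 FPKM, above every Hox value, so they cannot show whether low values are missed.

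Hoxc9, a gene of the posterior HoxC cluster that patterns the thoracic trunk and spinal cord, was the member with the most signal. Its homeobox, the coding stretch for the DNA-binding homeodomain, is shown with that of Hoxb9, a paralog in another cluster, because near-identical stretches could exchange reads. Each sequence holds 180 bases, was read from the GENCODE transcripts of the mouse reference, runs 5′ to 3′, and carries in capitals the bases of Hoxb9 that differ from Hoxc9.
Hoxc9: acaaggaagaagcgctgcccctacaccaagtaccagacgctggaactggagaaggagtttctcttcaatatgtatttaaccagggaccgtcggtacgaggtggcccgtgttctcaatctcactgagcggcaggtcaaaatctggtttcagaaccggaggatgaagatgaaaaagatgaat
Hoxb9: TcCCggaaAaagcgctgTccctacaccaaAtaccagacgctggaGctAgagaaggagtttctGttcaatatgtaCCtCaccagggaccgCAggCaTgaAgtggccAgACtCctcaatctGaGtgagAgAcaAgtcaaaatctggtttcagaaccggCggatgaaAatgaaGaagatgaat
The Hoxb9 homeobox differed from that of Hoxc9 at 29 bases (83.9% identity), and 4 of the 60 encoded residues differed. All 39 members hold a homeobox, with 56.7% to 83.9% identity to that of Hoxc9 (median 63.9%). The longest exact run shared by the Hoxc9 transcript and another member was 50 bases, in Hoxb9, against reads of 100 bases. Hoxb9 was listed at 0 in all 5 libraries.

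Promoters were examined for CpG, the dinucleotide that Uhrf1 and Dnmt1 keep methylated. In the RefSeq promoter table (GRCm38.p6, 250 bases before and 50 after each start), 22 of the 39 members were found, with 24 starts. Hoxc9, Hoxc5, Hoxc6, Hoxc10, Hoxb13 and Hoxb3 had no entry, and Hoxc4 was the only HoxC gene found. The counts therefore do not describe the promoter of Hoxc9. The 24 starts held 4 to 45 CG dinucleotides (median 14.5), against a median of 7 over all 32851 starts, of which 94.6% hold at least 1 CG. At least 20 CG were found in 45.8% of the Hox entries and in 26.5% of all entries. The lowest Hox counts, 4 to 6, belonged to Hoxa9, Hoxd4, Hoxd8 and 1 of the starts of Hoxd11. Medians in other lists described below were 20.5 for germ line genes (18 of 20 genes found), 21 for other developmental transcription factors (63 of 96) and 17 for cortical markers (10 of 12). For comparison the 250 bases upstream are printed for Hoxd9, which was above 0 in a cKO, for Hoxa13, whose entry holds the most CG among Hox genes, and for Syce1, a meiotic gene that rose in the cKOs, with each CG in capitals.
Hoxd9, chr2:74697513-74697762, plus strand, 13 CG: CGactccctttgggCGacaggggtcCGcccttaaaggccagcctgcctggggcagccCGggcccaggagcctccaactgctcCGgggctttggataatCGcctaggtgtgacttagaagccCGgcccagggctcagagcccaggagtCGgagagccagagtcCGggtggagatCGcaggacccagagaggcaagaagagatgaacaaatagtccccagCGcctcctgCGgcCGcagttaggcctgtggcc
Hoxa13, chr6:52260881-52261130, minus strand, 35 CG: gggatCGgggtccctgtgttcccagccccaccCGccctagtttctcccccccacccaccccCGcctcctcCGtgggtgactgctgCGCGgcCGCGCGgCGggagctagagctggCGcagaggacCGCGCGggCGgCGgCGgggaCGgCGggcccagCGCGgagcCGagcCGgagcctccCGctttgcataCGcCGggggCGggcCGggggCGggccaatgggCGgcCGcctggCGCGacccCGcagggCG
Syce1, chr7:140787855-140788104, minus strand, 13 CG: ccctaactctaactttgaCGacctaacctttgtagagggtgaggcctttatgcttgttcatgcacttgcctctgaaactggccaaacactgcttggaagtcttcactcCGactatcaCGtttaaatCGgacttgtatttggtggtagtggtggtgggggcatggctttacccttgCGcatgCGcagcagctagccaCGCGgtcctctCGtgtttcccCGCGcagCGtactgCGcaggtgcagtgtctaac
The CG count of a promoter is a description of its sequence and says nothing of its methylation in these cortices.

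Hox genes were almost silent in control cortex. In the controls 37 of the 39 members were listed at 0 in all 3 libraries. Hoxd8, a gene of the trunk, was at 0.0285 FPKM in control 1, the deepest library, with about 3.1 fragments, and was listed at 0 in controls 2 and 3. At these depths 3 fragments of a typical silent member correspond to 0.0364, 0.0978 and 0.15 FPKM in controls 1 to 3 and to 0.181 and 0.153 FPKM in cKO 1 and cKO 2, as medians over the silent members, and lower levels may go unseen. Such limits cover counting error only.

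Most members were also listed at 0 without Uhrf1. Over all 5 libraries 30 of the 39 members, 76.9%, were listed at 0 throughout, against 23.9% of the 22755 genes other than small RNAs. No HoxA gene was above 0 in a cKO. Of the HoxB, HoxC and HoxD genes, 2 of 10, 4 of 9 and 2 of 9 were above 0 in at least 1 cKO. By position in the cluster these were 1 of the 12 anterior members (paralog groups 1 to 4), 3 of 11 members of groups 5 to 8 and 4 of 16 posterior members (groups 9 to 13).

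**Figure D1:**
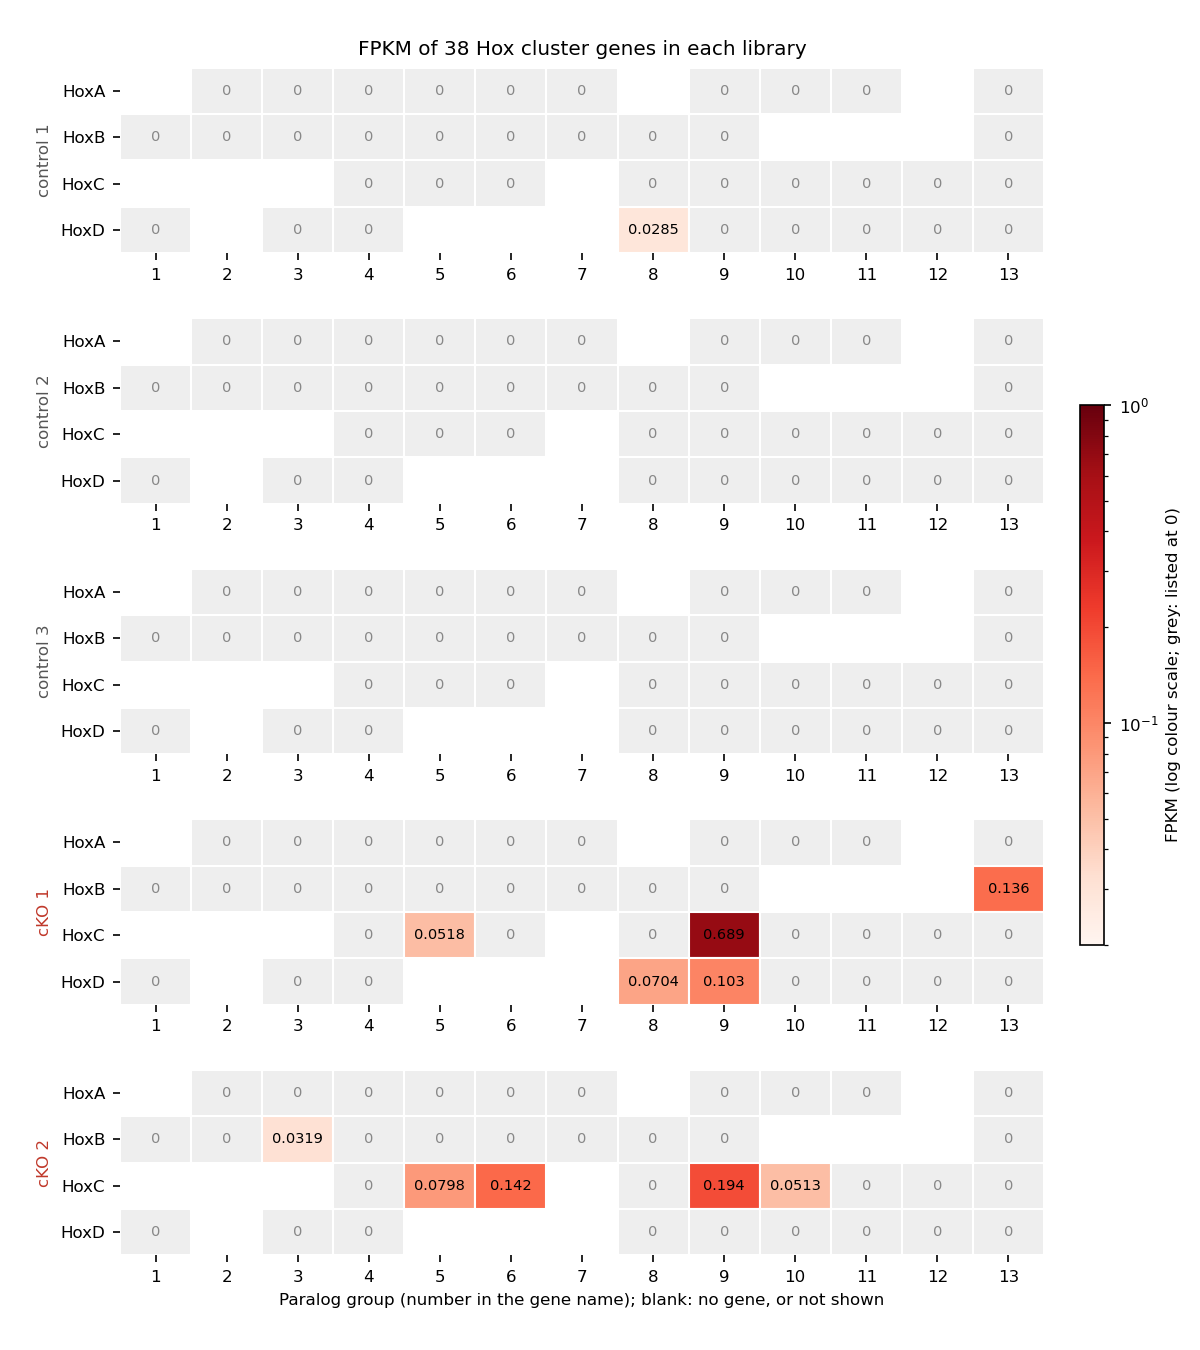
FPKM of 38 of the 39 Hox cluster genes in each of the 5 libraries, with 1 panel per library, the 4 clusters as rows and the paralog groups as columns. Colour gives FPKM on a log scale, grey cells are listed at 0 and blank cells have no gene or a gene not shown. Controls 2 and 3 hold no value above 0, each cKO holds 5, and the highest is Hoxc9 at 0.689 in cKO 1.

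Hoxc9 was listed at 0 in every control, at 0.689 FPKM in cKO 1 and at 0.194 FPKM in cKO 2. Both cKOs lay above every control, which 14.5% of the 14692 genes tested also did (2132 genes). The values correspond to about 13 and 4.4 fragments. For Hoxc9, 3 fragments would correspond to 0.0311, 0.0837 and 0.128 FPKM in controls 1 to 3, all below both cKO values. Because every control was at 0, no fold change is given, and the difference on the log2(FPKM + 0.1) scale depends on the added 0.1. On that scale it was 2.27 (SE 0.57), with an unadjusted p = 0.00305 and an adjusted p = 0.14 in limma, while the two-sided exact permutation test over libraries gave p = 0.1, the smallest that 3 libraries against 2 allow. The difference thus passed the study's thresholds as applied here in limma, over 2-fold at p under 0.05 before adjustment, but missed an adjusted p under 0.05. The study applied its thresholds to p-values from Cufflinks, a different test, so passing here does not mean passing there. With 1 in place of 0.1 added to FPKM the difference was 0.51 and missed the 2-fold threshold. Without cKO 1 it was 1.56 and without cKO 2 it was 2.98, where a lone cKO is set against controls at 0 and is assumed to vary like them, so these are values only.

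Hoxc9 was the only member whose mean over the 5 libraries reached 0.1 FPKM, the limit for testing. It reached that mean through the cKOs alone, so a difference was built into its selection and its call is not support for a rise of Hox genes as a group. Among all genes tested, 421 (2.87%) passed the unadjusted thresholds with higher values in the cKOs and 171 (1.16%) with lower values, and at an adjusted p under 0.05 these were 161 (1.1%) and 24 (0.163%). No Hox gene passed at an adjusted p. Hoxc9 lies on chromosome 15 from 102977032 to 102984444 (GRCm38).

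A further 8 members were above 0 in some library but had a mean under 0.1 FPKM. Of these, 7 are described here, named after their values were seen. Hoxc5, of the same cluster as Hoxc9, was the only other member above 0 in both cKOs, at 0.0518 and 0.0798 FPKM, and was listed at 0 in every control. These are about 1.3 and 2.3 fragments, fewer than 3 in each library.

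A further 6 members were above 0 in 1 cKO each. In cKO 1 these were the caudal gene Hoxb13 at 0.136 FPKM, the limb and trunk gene Hoxd9 at 0.103 and Hoxd8 at 0.0704. In cKO 2 they were Hoxc6, a gene of the brachial and thoracic trunk, at 0.142 FPKM, the lumbar gene Hoxc10 at 0.0513 and the hindbrain gene Hoxb3 at 0.0319. None of the 6 was seen in the other cKO, and each value stands for about 0.93 to 2.4 fragments. Hoxd8 alone among them was also above 0 in a control. Only Hoxc5 and Hoxc9 were therefore shared by both cKOs.

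**Figure D2:**
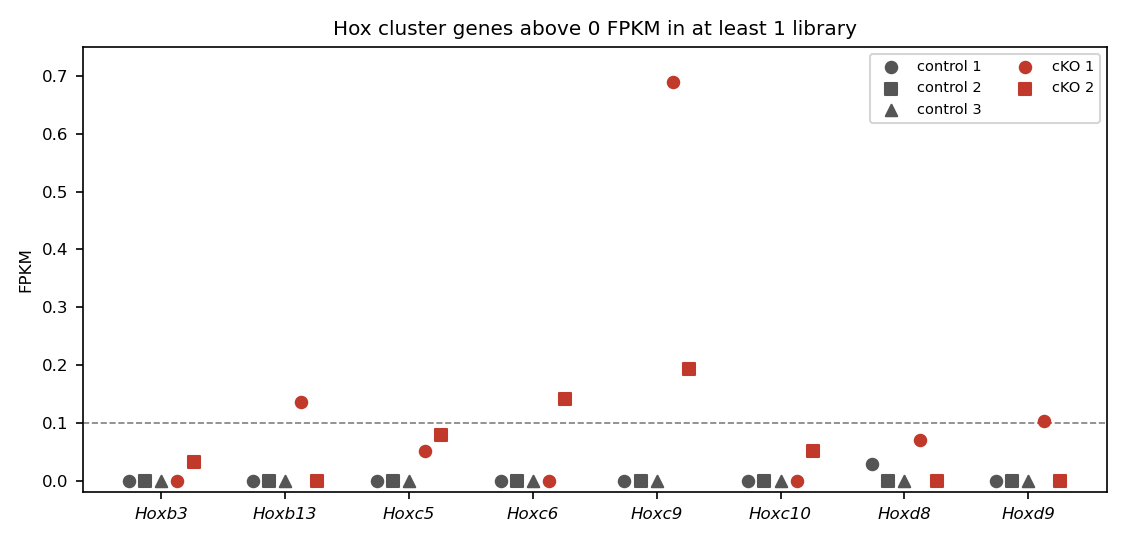
FPKM of 8 of the 9 Hox genes above 0 in at least 1 library. Each point is 1 library (grey for controls, red for cKOs) and the dashed line marks 0.1 FPKM. Hoxc9 in both cKOs, and Hoxb13, Hoxc6 and Hoxd9 in 1 cKO each, lie above the line, and no control point does.

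When all genes above 0 in some library were fitted (17306 genes, of which 2.84% were higher in the cKOs at the unadjusted thresholds), Hoxc9 remained the only Hox gene called, with an adjusted p of 0.0818 (limma). Hoxc5 had a log2 difference of 0.72 (adjusted p = 0.393, limma), under 2-fold. The 6 members seen in 1 cKO each had differences from 0.20 for Hoxb3 to 0.64 for Hoxc6 on that scale, and adjusted p-values from 0.585 to 0.795.

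Of the 37 members at 0 in every control, 7 (18.9%) were above 0 in at least 1 cKO and 2 (5.41%) in both. Among all 6021 genes at 0 in every control these shares were 9.5% (572 genes) and 2.46% (148 genes). The difference between these shares was not tested, and neighbouring Hox genes are not independent of each other. Without control 1, 8 of 39 members (20.5%) and 13.4% of all such genes were above 0 in a cKO, without cKO 1 it was 5 of 37 members (13.5%) and 6.21%, and without cKO 2 4 of 37 (10.8%) and 5.75%. Among the 148 genes seen in both cKOs and in no control, Hoxc9 ranked 50th and Hoxc5 113th by the mean of the cKOs, in a set with a median of 0.182 and a highest value of 12.5 FPKM.

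Summed over the 39 members, FPKM was 0.0622, 0 and 0 in controls 1 to 3 and 1.05 and 0.499 in cKO 1 and cKO 2. The groups did not overlap, and Hoxc9 made up most of the sum in cKO 1. Without Hoxc9 the sums were 0.0622, 0 and 0 in the controls and 0.362 and 0.305 in the cKOs. HoxC gave 0.741 and 0.467 FPKM of the cKO sums, HoxB 0.136 and 0.0319, and HoxD 0.174 and 0. In all, the Hox signal rested on about 20 fragments in cKO 1 and 11 in cKO 2, against about 6.2 in control 1. The share of all 23997 genes above 0 was 64.4% to 67.4% in the controls and 65.3% and 65.5% in the cKOs.

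The clusters were also examined with their surroundings. HoxA spans chr6:52155367-52260880, HoxB chr11:96194316-96368254, HoxC chr15:102921131-103036856 and HoxD chr2:74668225-74765142 (GRCm38). Inside the clusters the table lists 8 long noncoding RNAs, among them Hotair of the HoxC cluster and Hoxa11os, and 6 miRNAs (Mir10a, Mir10b, Mir196a-1, Mir196a-2, Mir196b and Mir615). All 14 were listed at 0 in all 5 libraries. Some of these RNAs and some Hox genes overlap each other, and the strand setting used to count reads is not given in the sources used here, so a low value in an overlap cannot be assigned to 1 of them with certainty.

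Genes next to the clusters did not pass the test. Within 200 kb outside the clusters the table lists 22 genes, of which 11 had a control mean of at least 1 FPKM, 12 reached the mean for testing and 0 were called in either direction, with or without the fold threshold in limma (median log2 difference -0.15, range -0.43 to 0.23, against -0.02 over all genes tested). Cbx5, which encodes the heterochromatin protein HP1 alpha and lies beside HoxC, was at 119, 121 and 112 FPKM in controls 1 to 3 and 118 and 115 FPKM in cKO 1 and cKO 2. Mtx2, a mitochondrial import gene beside HoxD, was at 65.8, 62.5 and 101 FPKM in controls 1 to 3 and 57.1 and 61.8 FPKM in cKO 1 and cKO 2. The homeobox genes Evx1 and Evx2, which border HoxA and HoxD, were listed at 0 in all libraries. Of the noncoding RNAs beside HoxA, Gm15055 was at 0.241 FPKM and 5730457N03Rik at 0.0461 FPKM in cKO 1, and both were listed at 0 in the other 4 libraries. Of those beside the other clusters, D930007P13Rik near HoxC was at 0.0705, 0.0594 and 0.187 FPKM in controls 1 to 3 and listed at 0 in both cKOs, and Gm11529 near HoxB was above 0 in control 2 alone, at 0.0635 FPKM. All 4 RNAs had a mean under 0.1 FPKM and were not tested.

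**Figure D3:**
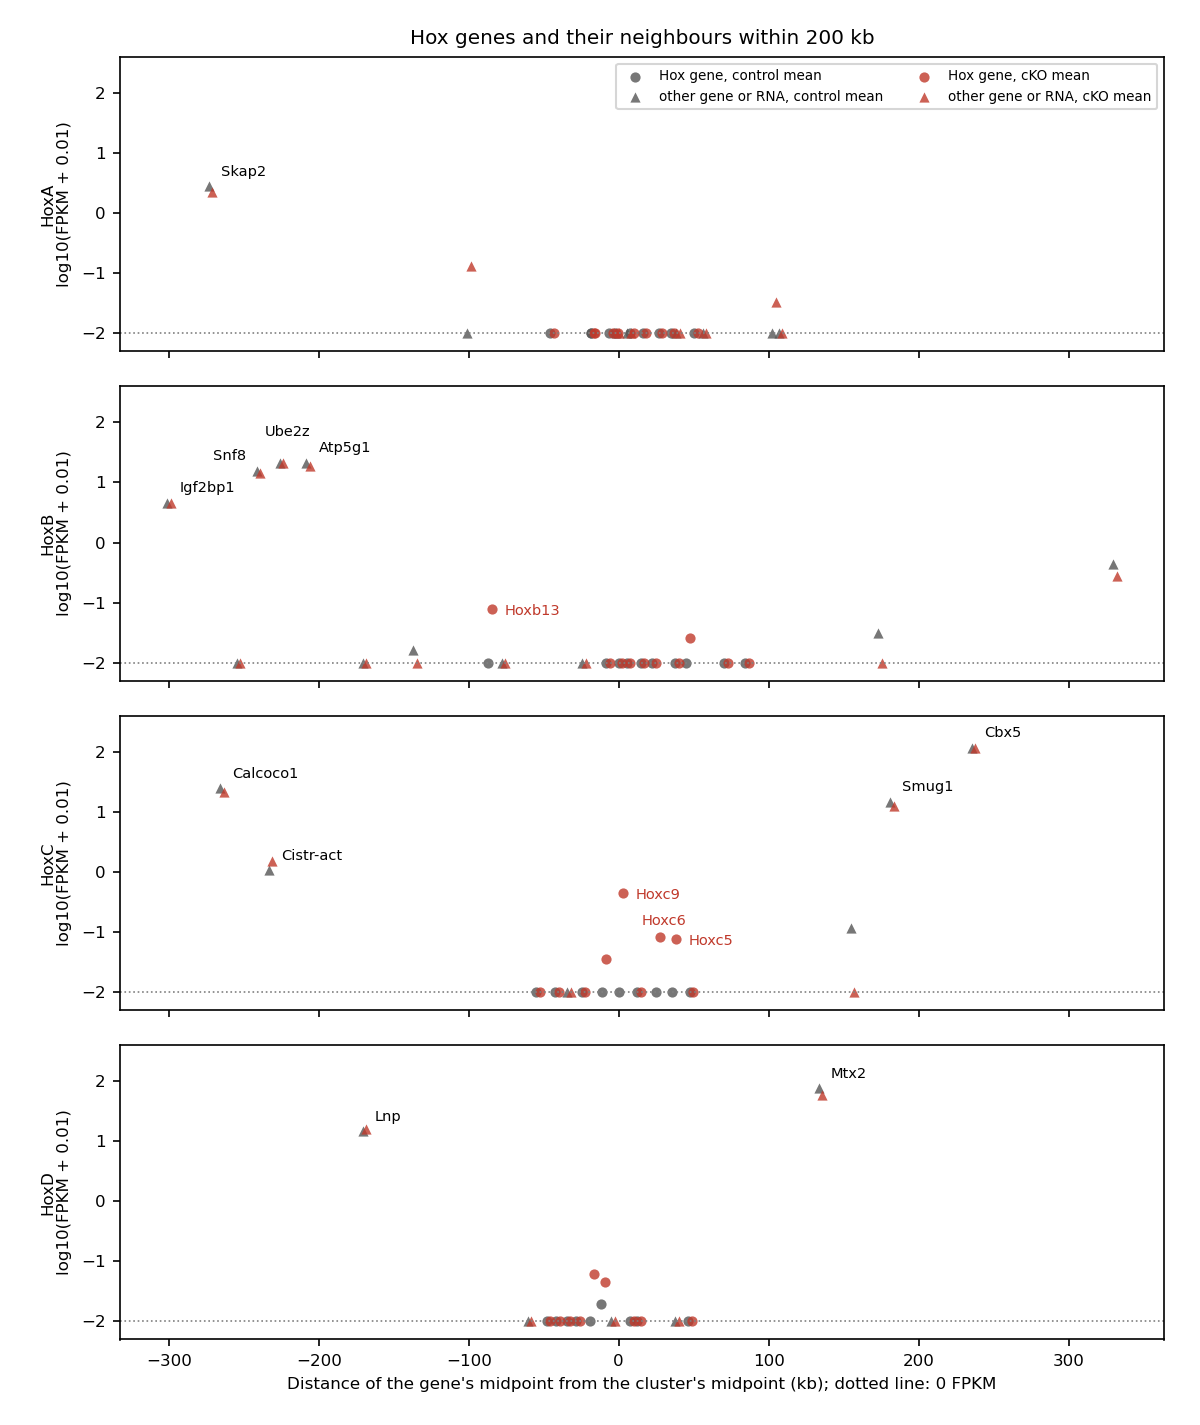
Group means of 38 Hox genes (circles) and other listed genes and RNAs (triangles) in and within 200 kb of each cluster, as log10(FPKM + 0.01) against the distance of the gene's midpoint from the cluster's midpoint in kb. Grey stands for controls, red for cKOs, and the dotted line for 0 FPKM. Flanking genes with a control mean above 1 FPKM, such as Cbx5 and Mtx2, hold similar values in both groups, while points inside the clusters lie on or near the 0 line.

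The genes that silence or activate Hox clusters were measured in every library, with PRC2 genes summing to 299, 304 and 337 FPKM in the controls and to 260 and 277 FPKM without Uhrf1. None of 12 PRC2 genes (median log2 difference -0.13), 24 PRC1 genes (0.19) or 11 Trithorax and histone demethylase genes (0.07) was called. Of all 14692 genes tested, 1695 had an unadjusted p under 0.05 in limma without the fold threshold, 760 of them lower in the cKOs. In these lists such genes numbered 1, 1 and 2. Among these were Ezh2 and, with log2 differences of 0.55 and 0.57, Kmt2a and Kmt2b, which encode Trithorax methyltransferases that keep Hox genes active where they are used. Kmt2a and Kmt2b were named after their values were seen. Ezh2, the PRC2 methyltransferase, was at 46.5, 52.6 and 47.2 FPKM in the controls and at 35.9 and 36.3 FPKM in the cKOs. Both cKOs lay below every control, a pattern not counted over all genes, but the difference did not pass (log2 difference -0.43, SE 0.15, adjusted p = 0.31, limma). Bmi1 and Rnf2, subunits of PRC1, had log2 differences of 0.21 and -0.05. Rbbp4, a histone-binding subunit of PRC2, had one of -0.31.

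None of the 9 genes for Hox cofactors was called (median 0.20), nor any of 9 tested among 19 genes for upstream activators of Hox clusters (median 0.27). An unadjusted p under 0.05 in limma without the fold threshold was reached by 2 cofactor genes and 1 activator gene. Of all 14692 genes tested 1695 reached it. Meis2, which encodes a homeodomain partner of Hox proteins, was at 39.7, 46.3 and 35.8 FPKM in the controls and at 32.5 and 43.6 FPKM in the cKOs (log2 difference -0.10, SE 0.19, adjusted p = 0.856, limma). Cdx1, Cdx2 and Cdx4, which activate trunk Hox genes, were listed at 0 in all libraries. Rxrb, a retinoid X receptor gene, had a log2 difference of 0.02.

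Another list held 96 developmental transcription factor genes of tissues outside the cortex, which like Hox genes are used elsewhere in the body. Of these, 31 were listed at 0 in all libraries and 41 in every control. Of the 41, 10 were above 0 in a cKO and 1, Sim1, in both, against 9.5% and 2.46% of all genes at 0 in every control. Of 24 tested, 3 were higher in the cKOs at the unadjusted thresholds (2.87% of all genes tested were) and none was lower (1.16%). None passed at an adjusted p, and the median log2 difference was 0.35. Isl1, a gene of motor neurons and other sites, was at 0.0516, 0 and 0.0798 FPKM in the controls and 0.0995 and 1.23 FPKM in the cKOs (log2 difference 1.88, adjusted p = 0.394, limma). En2, a midbrain and hindbrain gene, and Uncx, a somite gene, had log2 differences of 1.52 and 1.44, with adjusted p-values of 0.405 and 0.385. All 3 had a control mean under 0.1 FPKM and reached the mean for testing only through the cKOs. A difference was thus built into their selection. The count of 3 fell to 0 without control 1, without control 2, with quantile normalization or with 1 added to FPKM in place of 0.1. It was 6 with no filter on low values and 4 with no trend.

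A list of 20 germ line genes, many known to be silenced by DNA methylation in somatic cells, was examined beside them. Of 14 tested, 9 were higher in the cKOs and 1 lower at the unadjusted thresholds, and 7 were higher at an adjusted p under 0.05 (median log2 difference 2.61). All 9 had a control mean under 0.1 FPKM and reached the mean for testing only through the cKOs. A difference was thus built into their selection, and for those at 0 in every control the sign was fixed. The 9 became 3 with 1 added to FPKM and 2 when a mean of 1 FPKM was required. They stayed 9 with each control left out, which for that reason shows no stability. The 1 lower gene became 0 under 9 of the 12 alternatives. Of 8 at 0 in every control, 6 were above 0 in both cKOs, against 2 of 37 Hox genes. Syce1, a gene of the synaptonemal complex, was at 0.0983, 0.0848 and 0.058 FPKM in the controls and 7.01 and 7.08 FPKM in the cKOs (log2 difference 5.31, SE 0.33, adjusted p = 5.63e-05, limma). Rhox5, an X-linked homeobox gene outside the Hox clusters, rose by 7.24 on the log2 scale (adjusted p = 3.05e-05, limma). The Hox and germ line lists differed in their counts, but no test between them was made.

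**Figure D4:**
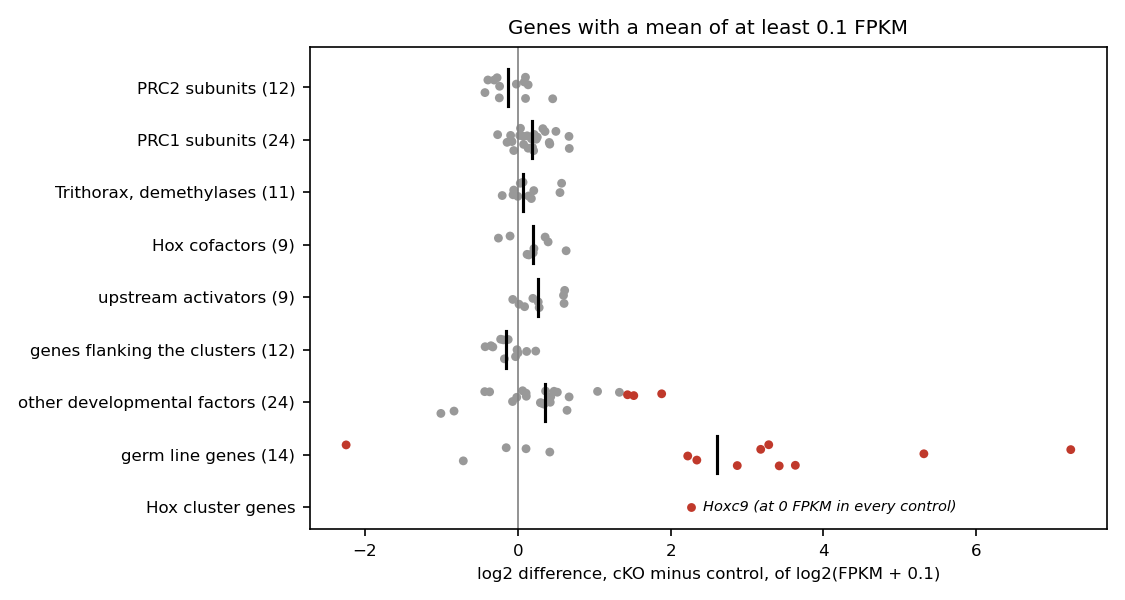
log2 difference of log2(FPKM + 0.1), cKO minus control, of the genes tested in each list (mean FPKM 0.1 or more), with the number tested in parentheses. Each point is a gene, red points pass the unadjusted thresholds, and bars are medians. The germ line genes reach 7.24, most Polycomb, cofactor and flanking genes lie near 0, and Hoxc9 is the only Hox gene shown.

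Because the tissue is bulk cortex, a few cells with much Hox RNA and many cells with little cannot be told apart. Markers of tissues and cells other than cortical neurons were therefore summed beside them. Over 16 hindbrain and spinal cord markers, summed FPKM was 0.248, 0.11 and 0.375 in the controls and 1.08 and 2.01 in the cKOs. The 2 genes tested, Isl1 and En2, were both called higher at the unadjusted thresholds. Both had a control mean under 0.1 FPKM and reached the mean for testing only through the cKOs. A difference was thus built into their selection. The count of 2 fell to 0 without control 1, without control 2, with quantile normalization or with 1 added to FPKM. It was 1 without control 3 or with 0.01 added to FPKM. Of these 16, 6 were listed at 0 in all libraries, among them Lbx1, Chat, Pax2, Pax8 and Atoh1. In cKO 2 most of the sum came from Isl1 at 1.23 FPKM and En2 at 0.634 FPKM, which were at 0.0995 and 0.108 FPKM in cKO 1. Both are also on the list of other developmental factors, and Isl1 is on that of the ventral telencephalon. The 8 markers of meningeal fibroblasts summed to 12.4, 9.45 and 10.3 FPKM in the controls and 21.6 and 19.5 FPKM in the cKOs, and 2 of 8, Col1a1 and Lum, were called higher, but 0 without control 3, with quantile normalization or with 1 added to FPKM. None of the 8 was at 0 in all libraries. The part of either list in the Hox values was not tested.

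Markers of other cells were given by the same count. For comparison, 1695 of all 14692 genes tested had an unadjusted p under 0.05 in limma without the fold threshold, 760 of them lower in the cKOs. Ventral telencephalon markers summed to 85.3, 88.6 and 95.7 FPKM in the controls and to 172 and 101 FPKM in the cKOs, with 2 of 11 tested called higher, Isl1 and Gsx2, and 5 at an unadjusted p under 0.05 in limma without the fold threshold, all 5 higher. Isl1 reached the mean for testing only through the cKOs, as described above. The 2 became 0 without control 1, without control 2, with quantile normalization or with 1 added to FPKM. Microglia and macrophage markers summed to 40.3, 30.4 and 57.6 in the controls and 64.1 and 57.2 in the cKOs, and those of endothelial cells and pericytes to 157, 117 and 124 against 135 and 136, with no gene called in either list of 12 and 10 and 4 and 1 genes at an unadjusted p under 0.05 in limma. Red cell markers summed to 924, 598 and 815 in the controls and 512 and 452 in the cKOs, with 1 called higher and 1 lower of 8, the alpha globin copies Hba-a1 and Hba-a2, which share sequence so that their values are uncertain. None of 12 cortical markers was called (median log2 difference -0.24), and 4 had an unadjusted p under 0.05 in limma, all 4 lower in the cKOs. Both cKOs lay below every control for 5 of the 12, but how many of all genes tested did so was not counted.

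**Figure D5:**
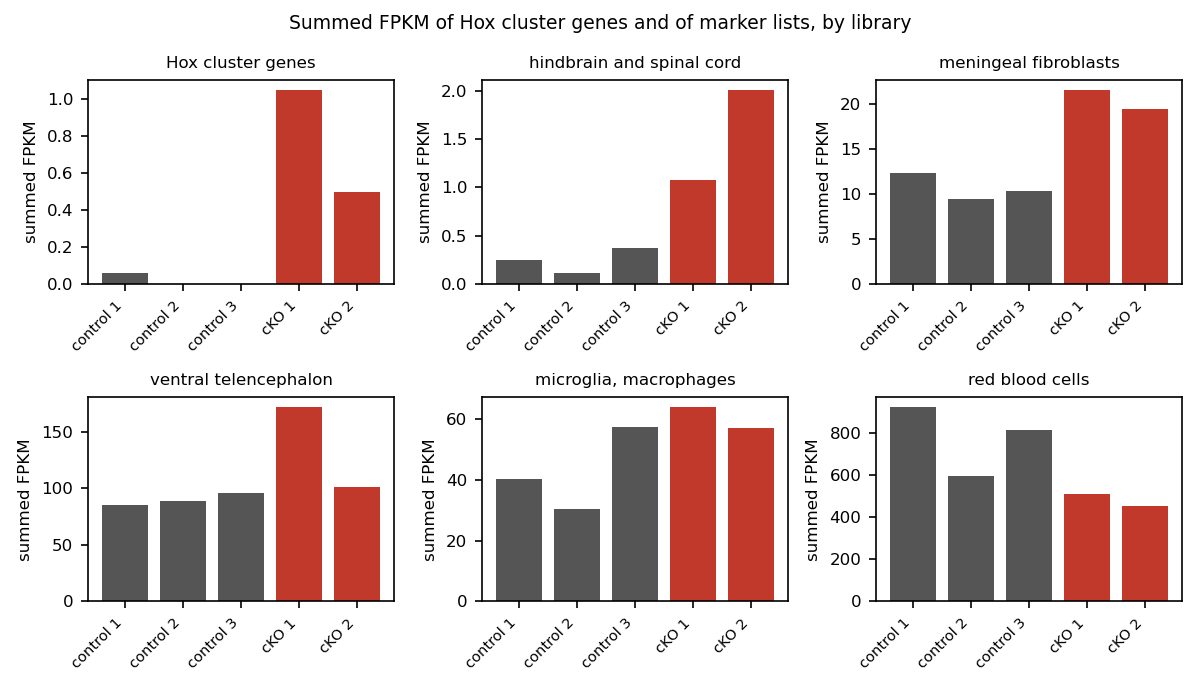
Summed FPKM per library of the Hox cluster genes and of 5 marker lists, with bars from 0 (grey for controls, red for cKOs). Hox, hindbrain and spinal cord, meningeal and ventral telencephalon sums are higher in both cKOs than in every control, and the red cell sum is lower in both.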

How the data were processed

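RNA-seq of embryonic day 16 full cortex (3 controls, 2 Uhrf1 cKOs, given as biological replicates) was used. The authors mapped paired 100-base strand-specific reads to mm10 with TopHat2, removed duplicated, poorly aligned and multiply mapped reads, and deposited FPKM values per gene and library, made with Cuffdiff; tool versions and the annotation are not stated in the sources used here. Removing multiply mapped reads can lower genes with near-identical copies. Library names in the labels tied each column to its sample. Where nothing says that embryos came from separate litters, p-values measure only the spread between these samples.

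In R 4.3.3, limma 3.58.1 (eBayes with trend, 6.32 prior degrees of freedom) compared cKO with control on log2(FPKM + 0.1) without covariates, over the 14692 genes whose mean FPKM was 0.1 or more. Of 1242 small RNA names 63 had such a mean and were not tested, since small RNAs took 54.6% to 88.4% of the summed FPKM. Thresholds were the study's (unadjusted p under 0.05 and over 2-fold), applied to limma where the study used Cufflinks p-values, and a Benjamini-Hochberg adjusted p under 0.05. The median of all tested genes differed by 0.025 on the log2 scale between groups. The test was tested on simulated data. Gene names were matched to RefSeq of GRCm38.p6 (22500 by symbol, 1360 by synonym, 137 not matched). Python 3.11.15, numpy 2.4.6, pandas 2.3.3, scipy 1.17.1 and matplotlib 3.10.9 were used.

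Hox genes whose mean reached 0.1 FPKM were named with all values. Of each other list, up to 4 members past the unadjusted thresholds with the largest change were to be named, or the 2 with the highest mean where fewer than 2 passed, and Uhrf1. The values of some genes that this rule names are not reported here. Other genes were named after their values were seen. The members and lists were chosen with earlier results of these data known. Alternatives were other pseudocounts (1, 0.01), filters (none, a mean of at least 1 FPKM) and scalings (median, quantile), no trend, and leaving out each library in turn. Leaving out libraries for the counts of genes at 0 was added after the data were seen.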

Additional observations from a re-analysis of the deposited data

How the results depend on the processing

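With a pseudocount of 1, 0 Hox genes were called higher instead of 1, since the Hoxc9 difference and with it the median over Hox genes tested fell to 0.506 (adjusted p = 0.242, limma). With a pseudocount of 0.01 they were 5.24. With no filter on low values the median over the 9 Hox genes tested was 0.512 while Hoxc9 stayed at 2.27. Hoxc9 was at 0 in every control, so the sign of its difference was fixed and shows no stability. Its adjusted p ranged from 0.0657 to 0.317. When each library was left out in turn, the Hoxc9 difference and the median ranged from 1.56 without cKO 1 to 2.98 without cKO 2 (the lone cKO then assumed to vary like the controls), and the difference in summed Hox FPKM from 0.478 without cKO 1 to 1.03 without cKO 2 (0.754 with all libraries). With a mean of at least 1 FPKM no Hox gene was left to test. Over all genes, the 421 called higher became 152 with a pseudocount of 1 and 171 when a mean of 1 FPKM was required, and 381 to 584 with a library left out. The 171 called lower became 24, 64 and, with quantile normalization, 280, and 155 to 310 with a library left out, the highest without cKO 1. The causes were not tested. The 34 counts of called genes in the other lists, and of all genes at an adjusted p, under 12 alternatives each, stayed within 1.5 times in 343 cases, were lower in 51 and higher in 14. Most of the 34 counts were 0 in the main setting, and a 0 that stayed 0 is among the 343. For the noncoding RNAs inside the clusters no gene was tested, which fixed their counts at 0. The 343 cases therefore do not show stability. No paired analysis was possible because the labels give the libraries no shared replicate numbers. Depth limits the Hox values, since 8 of the 9 above 0 rest on fewer than 4 fragments in each library.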
